A study of Homo sapiens with 5 samples.

Results

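The contrast described here asks, gene by gene, whether the difference between 1% and 20% oxygen was the same after 10 days as after 1 day. It is the day 10 difference (1% minus 20% oxygen) minus the day 1 difference, each taken as a log2 difference of the normalized level plus 1, so that a value of 1 stands for a response that was 2-fold larger, or a fall that was 2-fold smaller, on day 10. All genes with a level of at least 5 CPM (counts scaled to library size, with TMM factors) in at least 1 of the 4 libraries involved were taken, which gave 11580 of the 26475 rows in the table. Just inside that limit were SH3TC1, LCK and PCDHB6, with a highest level of 5.08 CPM each. Just outside it were LYSMD4 and NME1-NME2, both with 4.998 CPM.

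The cells were MDA-MB-231, an established human breast cancer line of the triple-negative kind, and RNA sequencing of their mRNA gave 1 library per condition. Cells were kept for 1 day at 20% oxygen, 1 day at 1% oxygen, 10 days at 20% oxygen or 10 days at 1% oxygen, with no other agent or genetic change named in the labels. Another library, from cells returned to 20% oxygen for 10 days after 10 days at 1% oxygen, did not enter the contrast and is set beside it. Nothing says that the libraries of different days came from separate cultures, and 1 library per condition gives no replicate check: the contrast uses all 4 libraries, has 0 residual degrees of freedom and carries no p-value.

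Counts summed to 10764198 (20% oxygen, day 1), 11189158 (1%, day 1), 12544941 (20%, day 10), 9781971 (1%, day 10) and 7719807 (reoxygenated), and 3 counts were worth 0.25 to 0.37 CPM. Of 8 genes typical of this line, 7 (all but SPARC) reached 5 CPM in at least 1 library. Summed markers of luminal cells were 36.3 to 43.6 CPM in the 3 other libraries of the contrast and 77.6 CPM in 1% oxygen at day 10, and those of fibroblasts were 10.2 to 14.2 and 35.3 CPM. ESR1, PGR, COL1A2 and DCN were each at or under 0.38 CPM in these libraries. Other members were not: 3 of 6 luminal markers (GATA3, EPCAM and ERBB3) and 2 of 7 fibroblast markers (COL1A1 and PDGFRB) reached 5 CPM. Among markers of blood, keratinocytes and endothelium, CD68, KRT10 and KDR did. The part of these markers in the results was not tested. Intervals given in brackets are exact 95% intervals of the ratio of counts. They cover counting error only, because nothing marks which reads are copies of 1 molecule.

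As background, cells sense oxygen through prolyl hydroxylases (EGLN1 to EGLN3) that need oxygen to mark the HIF alpha subunits (HIF1A and EPAS1, also called HIF-2 alpha) for destruction. When oxygen is short, HIF accumulates and switches on genes for glycolysis, blood vessel growth, pH control and matrix remodelling. Some HIF targets, such as EGLN3 itself, feed back on the pathway, and lasting hypoxia is known to slow cell division.

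Most of the oxygen response in these libraries was found on day 10. On day 1, 60 genes were at least 2-fold higher at 1% oxygen (0.518% of the 11580) and 10 at least 2-fold lower (0.0864%), of which 6 were rows whose reads cannot be assigned safely to 1 gene. On day 10, 986 genes were higher (8.51%) and 850 lower (7.34%). The contrast was at least 1 for 783 genes (6.76%) and at most -1 for 630 genes (5.44%). The median contrast of all genes was -0.09, and 43.9% of genes lay above 0.

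The balance of the 2 directions depended on how the libraries were scaled. With the authors' TMM scaling, 55.4% of the genes past the size rule were higher in the contrast. Scaled by library totals alone, 1061 genes were higher and 386 lower (73.3% higher), and the median of all genes moved by 0.13. With the median of all genes set to 0, 965 were higher and 441 lower (68.6% higher). The minimum level also bore on it: 287 of the 783 higher genes (36.7%) reached 5 CPM in 1% oxygen at day 10 and in no other library of the contrast, against 0 of the 630 lower genes. Raising the minimum to 10 CPM left 578 higher and 597 lower.

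The genes were sorted by shape. A response was called growing where the day 10 difference and the contrast were both at least 1 in size and in 1 direction, and fading where a day 1 difference of at least 1 shrank by 1 or more. It was called reversing where the differences had opposite signs, each at least 0.5 in size and at least 1 apart, and equal where they had 1 sign, the larger was at least 1 and they differed by under 0.5. Growing responses were the most frequent, with 641 genes higher (5.54%) and 518 lower (4.47%). Equal responses numbered 46 higher (0.397%) and 13 lower (0.112%). Reversing responses numbered 32 to higher (0.276%) and 18 to lower (0.155%), and fading ones 2 (0.0173%) and 3 (0.0259%). Another 611 genes (5.28%) were past 1 on at least 1 day and fell between these classes, 199 (1.72%) had differences under 1 in opposite directions that were at least 1 apart, and 9497 (82%) were under the size rule. The borders cut a continuous range: 462 genes had a contrast of 0.9 to 1.0 in size and 359 one of 1.0 to 1.1.

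**Figure D1:**
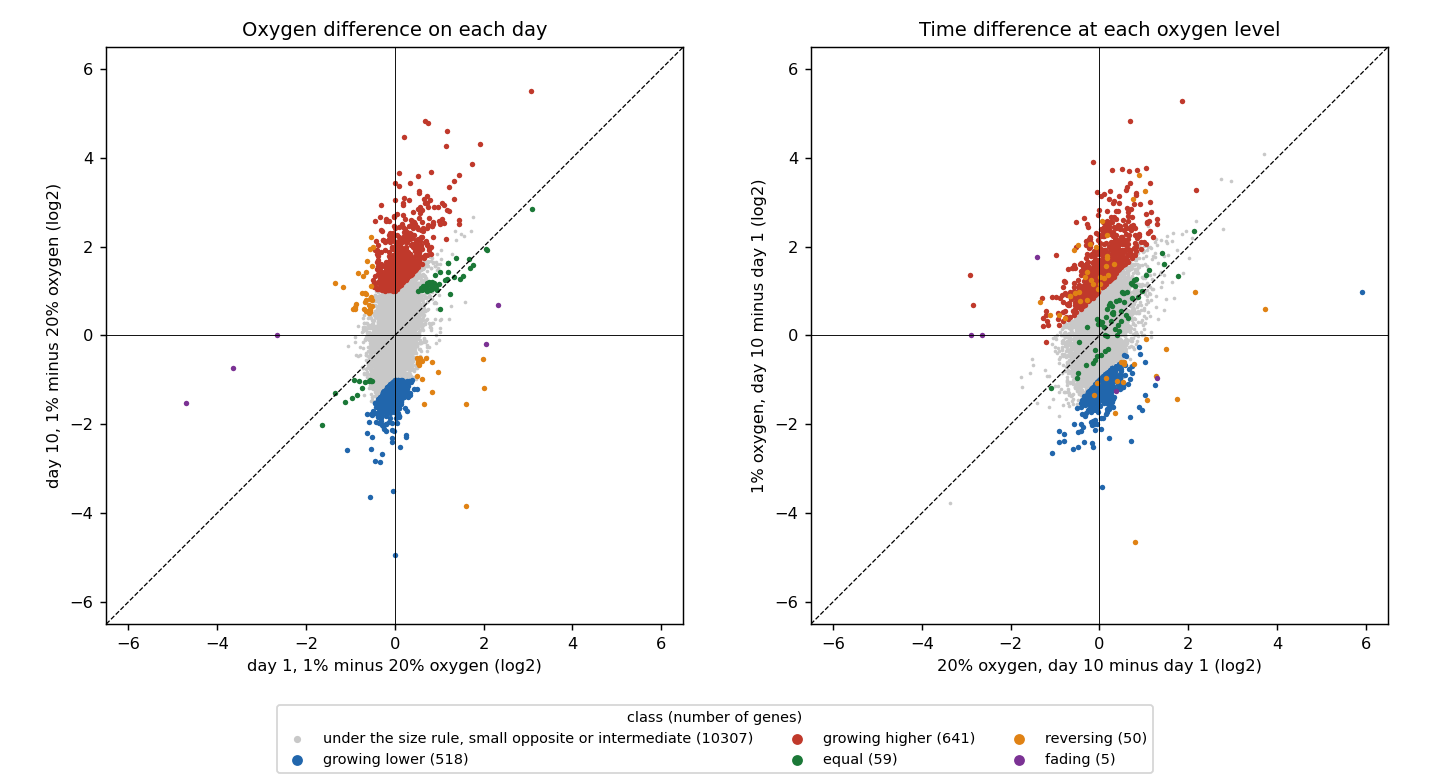
Left, the log2 difference between 1% and 20% oxygen on day 10 against that on day 1; right, the log2 difference between day 10 and day 1 at 1% oxygen against that at 20% oxygen. Each point is 1 of 11580 genes, coloured by class, and the dashed line marks equal values on both axes. The growing classes (641 and 518 genes) spread up and down the vertical axes in both plots, and the 59 equal genes lie along the diagonal on the left.

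The contrast can come from the hypoxic pair of libraries or from the 20% pair. Of the 641 growing higher genes, 422 (65.8%) differed by at least 1 between day 10 and day 1 at 1% oxygen and by under 0.5 at 20% oxygen, and 6 showed the opposite pattern. For the 518 growing lower genes these numbers were 390 (75.3%) and 0, and for all genes 1287 (11.1%) and 23 (0.2%). A growing gene has to differ between days in at least 1 of the pairs, because its contrast is at least 1 in size. Over all genes, 116 (1%) were at least 2-fold higher on day 10 than on day 1 at 20% oxygen and 35 (0.302%) at least 2-fold lower, with 51% of genes above 0. At 1% oxygen 990 (8.55%) and 698 (6.03%) were.

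Equal responses were led by known HIF targets. CA9, a membrane carbonic anhydrase that exports acid equivalents and is widely used as a hypoxia marker, stood at 5.17 CPM in 20% oxygen and 51.8 CPM in 1% oxygen on day 1, and at 8.66 and 68.7 CPM on day 10. Its log2 differences were 3.10 and 2.85, and the contrast was -0.24 (-0.87 to 0.18). ALDOC, a brain-type aldolase of glycolysis, read 26.9 and 117 CPM on day 1 and 41.4 and 160 CPM on day 10, a contrast of -0.15 (-0.41 to 0.08). Both 1% libraries lay above both 20% libraries for each of these genes.

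PFKFB4, which makes the activator of phosphofructokinase, had differences of 1.67 and 1.72, and KDM3A, a histone H3K9 demethylase that itself uses oxygen, had 1.18 and 1.26. P4HA1, a collagen prolyl hydroxylase, stood at 90.9, 238, 124 and 417 CPM in the order 20% and 1% on day 1, 20% and 1% on day 10. Its contrast was 0.37 (0.23 to 0.51), and that of the mitophagy receptor BNIP3L was 0.44 (0.29 to 0.59). These intervals lie above 0, so equal here means within the border and not free of difference: the interval of the contrast left out 0 for 10 of the 46 genes. TCAF2 (2.06 and 1.94), RIMKLA (1.76 and 1.57), SPAG4 (1.70 and 1.52) and SPTB (1.21 and 1.64) were also among the leading genes named by the rule. Their contrasts had intervals of -0.94 to 0.61, -0.73 to 0.30, -1.76 to 0.76 and -0.76 to 1.07, in this order. All of these reach past 0.5 in size, as does that of CA9, so they do not show equality. For SPTB the 20% libraries also differed, by 1.41 between days. TCAF2 shares 33.3% of its sampled sequence with a pseudogene, TCAF2P1. CA9 and SPTB share the same percentage, 33.3%, with the genes ARHGEF39 and PLEKHG3, so reads of these rows are less safely assigned.

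The CA9 promoter is shown because the gene leads the class and holds a match to the HIF binding core just before its start. The 150 bases before the RefSeq start (GRCh38.p14, chr9:35673778-35673927, plus strand) hold 1 match, 18 bases before the start. Capitals mark it, and it is printed as the reverse complement of the core ACGTG:
CA9: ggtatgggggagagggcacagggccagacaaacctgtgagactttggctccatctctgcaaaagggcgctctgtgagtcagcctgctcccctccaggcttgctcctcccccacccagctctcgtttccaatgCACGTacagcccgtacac

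Of the 13 genes equally lower on both days, 4 were rows of uncertain assignment. DHODH, which makes pyrimidines in mitochondria, read 14.8 CPM in 20% and 7.77 CPM in 1% oxygen on day 1, and 13.4 and 4.70 CPM on day 10. Its differences were -0.85 and -1.34. TOR3A had -0.59 and -1.03, FDXACB1 -0.97 and -1.42, SSSCA1 -0.80 and -1.02 and KIAA0408 -0.91 and -1.01. GCOM1 had -1.34 and -1.30. The contrast intervals of all genes named here reach past 0.5 in size, so they do not show equality. DHODH had -1.22 to 0.05, TOR3A -0.77 to -0.17 and FDXACB1 -1.53 to 0.15. For SSSCA1 it was -0.77 to 0.27, for KIAA0408 -2.48 to 0.77 and for GCOM1 -0.75 to 2.09. GCOM1 reached 5 CPM in 20% oxygen at day 10 alone and KIAA0408 in 20% oxygen at day 1 alone. Both thus had to differ to be counted. Of the sampled sequence, SSSCA1 shares 38.3% with FAM89B and GCOM1 21.7% with MYZAP.

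Growing responses to higher levels were led by TNFSF10. This gene, which encodes the death ligand TRAIL, read 1.76 CPM in 20% and 3.42 CPM in 1% oxygen on day 1, and 3.42 and 124 CPM on day 10. The fold difference was 1.95 on day 1 and 36.4 on day 10, a contrast of 4.14 (3.20 to 5.21). Only the 1% library of day 10 stood apart and reached 5 CPM, so the gene had to differ to be counted. The reoxygenated library read 3.07 CPM. SLC5A3, the sodium-coupled transporter that brings in the osmolyte myo-inositol, read 73.6 and 124 CPM on day 1 and 66.6 and 1874 CPM on day 10, a contrast of 4.05 (3.89 to 4.23).

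SLC2A3, the high-affinity glucose transporter GLUT3, read 32.8 and 74.5 CPM on day 1 and 35.0 and 686 CPM on day 10. TNFSF15, another ligand of the TNF family, read 3.03, 8.05, 13.5 and 351 CPM in the same order, so the 20% libraries also differed between days. CYP1A1, a detoxifying oxygenase that the aryl hydrocarbon receptor controls, read 8.98 and 9.62 CPM on day 1 and 8.66 and 99.0 CPM on day 10. For SLC2A3 and TNFSF15 the day 1 difference (1.16 and 1.17) was already past 1, while for CYP1A1 it was 0.09. The other leading genes were SYT12, C1QL1, MAP3K7CL, C9orf84 and ZNF467, with contrasts of 3.24, 3.09, 3.07, 3.03 and 3.00. They read at most 6.01 CPM in the 3 other libraries, so their values rest on few counts. For C9orf84 the interval runs from 2.59 to 11.61. All of them but MAP3K7CL reached 5 CPM in 1% oxygen at day 10 alone and so had to differ to be counted.

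SLC5A3 is shown as the leading growing gene with a promoter entry that holds the core. Capitals mark its 2 matches to GCGTG, 140 and 63 bases before the start (GRCh38.p14, chr21:34073428-34073577, plus strand):
SLC5A3: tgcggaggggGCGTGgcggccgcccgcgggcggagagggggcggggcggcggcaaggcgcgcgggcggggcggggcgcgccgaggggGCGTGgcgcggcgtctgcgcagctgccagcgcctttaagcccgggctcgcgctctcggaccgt

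Of the 641 growing higher genes, 89 had a day 1 difference of at least 0.5 in the same direction and 552 started later. The median level of the 641 in 20% oxygen on day 1 was 5.47 CPM, against 37.8 CPM for all 11580 genes and 73.8 CPM for the growing lower genes. The minimum level bears on this gap: 252 of the 641 (39.3%) reached 5 CPM in 1% oxygen at day 10 alone. For all genes this share was 4.42%. For the 518 growing lower genes it had to be 0, because such a gene is higher at 1% oxygen on day 10. Genes that reached 5 CPM in a 20% library alone were not counted. A contrast of 2 or more was found for 106 of the 641, and one of -2 or less for 15 of the 518. Several runs of neighbours among the measured genes of certain assignment were growing higher together. Other genes can lie between them, and the runs were picked out after their values were seen. NEAT1 and MALAT1, adjacent nuclear long noncoding RNAs on chromosome 11, had contrasts of 1.67 and 1.03. The thrombin and protease receptor genes F2RL2, F2R and F2RL1 on chromosome 5 had 1.33, 1.36 and 1.17.

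**Figure D2:**
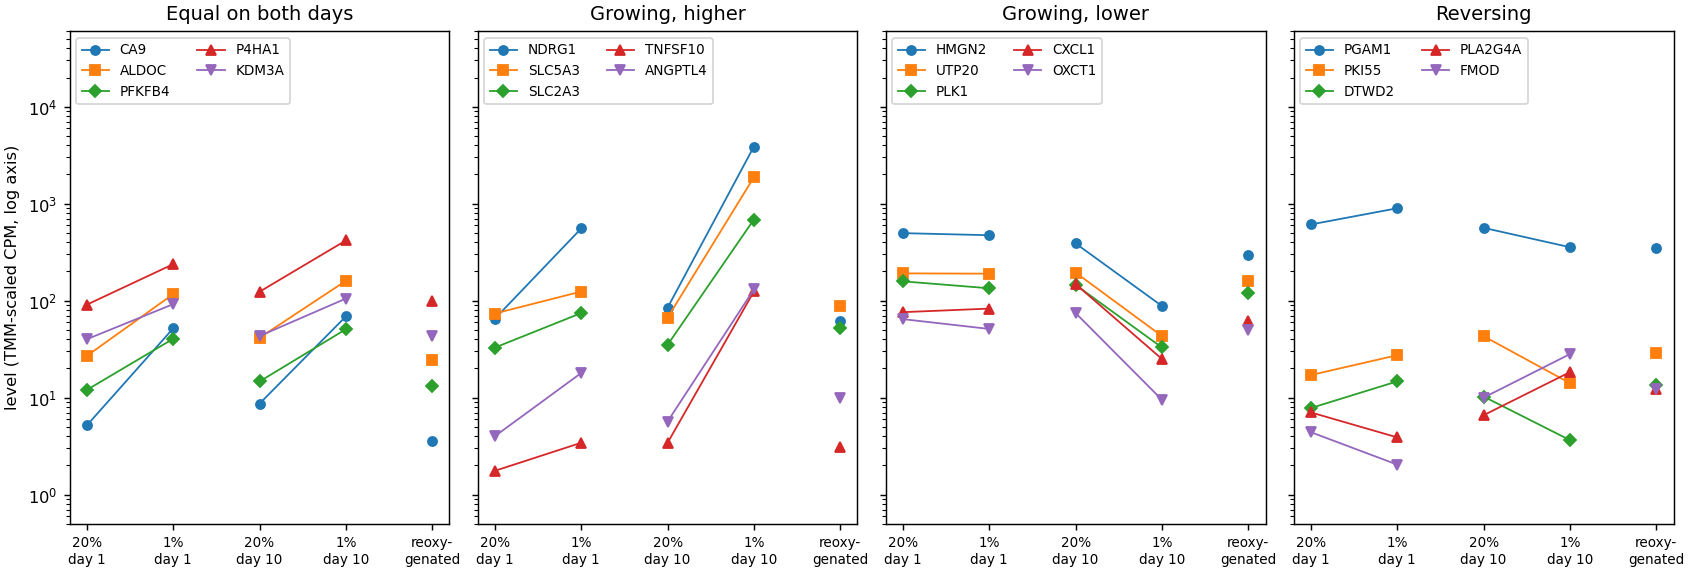
Levels (TMM-scaled CPM, log axis) of 5 genes from each class in all 5 libraries, with 1 point per library; lines join the 20% and 1% oxygen libraries of 1 day. Growing higher genes such as SLC5A3 reach 1874 CPM in 1% oxygen at day 10, while CA9 and ALDOC show a like step on both days and PGAM1 steps up on day 1 and down on day 10.

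Growing responses to lower levels came mostly from well-expressed genes that showed little on day 1. HMGN2, a nucleosome-binding protein, read 497 and 473 CPM on day 1 and 389 and 88.1 CPM on day 10, a contrast of -2.06 (-2.19 to -1.95). OXCT1, which lets cells burn ketone bodies, read 64.4 and 51.1 CPM on day 1 and 74.5 and 9.49 CPM on day 10, a contrast of -2.52 (-2.99 to -2.29). ID3, an inhibitor of basic helix-loop-helix factors, read 24.6, 19.8, 60.1 and 8.53 CPM, and part of its contrast of -2.38 lay in the higher 20% library of day 10.

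UTP20, a factor of ribosome assembly, read 191, 190, 195 and 43.1 CPM, so that 3 libraries lay close together and 1% oxygen at day 10 apart. NAV3 and TAF9B, a subunit of transcription initiation complexes, had contrasts of -2.26 and -2.38, and DHRS2, a short-chain dehydrogenase, had -2.50. The largest contrast by the rule, -3.08 (-4.54 to -2.90), was that of BCYRN1, a short noncoding RNA related to Alu repeats. It read 19.1, 12.6, 31.9 and 1.63 CPM, the last from 17 counts, and the 20% libraries differed by 0.71 between days. Only identical words were searched for shared sequence, so whether reads of related repeats entered this row was not tested. Of the 518 genes, 9 had a day 1 difference of at least 0.5 in the same direction.

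The 44 measured mitosis genes were the most uniform list. All 44 lay below 0 in the contrast, also with library totals, with size factors of DESeq2 and with the median of all genes set to 0. Of them, 29 were at or below -1 (5.44% of all genes were), and their median was -1.15 against -0.09 over all genes. On day 1 15 of the 44 were above 0 (45.5% of all genes) and none was past 1 in either direction. On day 10 all 44 were lower (44.1% of all genes were above 0), 32 of them by at least 2-fold (7.34%). In RNA from a whole culture, fewer dividing cells and less of these RNAs per dividing cell cannot be told apart.

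CENPE, a kinesin that attaches chromosomes to the spindle, read 198 and 204 CPM on day 1 and 184 and 46.0 CPM on day 10. PLK1, the polo-like kinase of mitotic entry, read 158 and 134 CPM on day 1 and 145 and 32.9 CPM on day 10. The contrasts were -2.01 (-2.21 to -1.87) and -1.87 (-2.11 to -1.71), and for both genes the 3 other libraries lay close together and the 1% library of day 10 below them. NCAPG, a condensin subunit, and NDC80, of the kinetochore, had -1.82 and -1.73. TTK and CDK1, with -0.91 and -0.92, stayed short of the border. MKI67, the proliferation marker Ki-67, was 0.37 higher on day 1 and 1.04 lower on day 10, with 755, 979, 837 and 406 CPM.

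Of 50 DNA replication genes, 49 lay below 0 (48 with library totals), 14 of them at or below -1 (5.44% of all genes), and the median was -0.71. Of all genes, 43.9% lay above 0, and 52.9% with library totals. RRM2, which makes deoxynucleotides, read 457 and 470 CPM on day 1 and 404 and 115 CPM on day 10, a contrast of -1.84 (-1.96 to -1.75). CCNE2, cyclin E2, had -1.69, CLSPN, of the replication checkpoint, -1.43, and CHAF1B, of chromatin assembly, -1.42. With library totals 9 of the 50 were at or below -1, and 3.32% of all genes. CCNE2 shares 46.7% of its sampled sequence with INTS8, and NCAPG, above, 35% with LCORL. In the reoxygenated library RRM2 read 307 CPM and PLK1 119 CPM.

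PLK1 and CDC20, the activator of the anaphase-promoting complex (contrast -1.36), are shown because their promoters hold the elements that mark many mitosis genes. The cell cycle homology element was searched as TTTGAA and the CCAAT box as CCAAT, on both strands, in windows from 250 bases before to 50 after the RefSeq start. Capitals mark matches to either one, in the 150 bases before the start (GRCh38.p14, PLK1 chr16:23678739-23678888 and CDC20 chr1:43358831-43358980, both plus strand):
PLK1: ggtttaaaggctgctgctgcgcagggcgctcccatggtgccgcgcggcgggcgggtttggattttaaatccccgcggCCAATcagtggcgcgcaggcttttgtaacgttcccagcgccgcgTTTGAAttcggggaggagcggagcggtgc
CDC20: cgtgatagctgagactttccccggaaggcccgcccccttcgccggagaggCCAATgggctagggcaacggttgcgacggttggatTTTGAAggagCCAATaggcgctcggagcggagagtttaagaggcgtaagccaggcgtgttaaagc

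Of the 11580 genes, 9411 rows matched an entry, for 9401 different promoters. The homology element was in 73.7% of 38 mitosis promoters and in 9.47% of all promoters of the contrast, and it was in 19.5% of 425 growing lower and 7.96% of 465 growing higher promoters. An E2F site, searched as TTTGGCGC or TTTCCCGC, was in 47.6% of 42 replication promoters and 3.95% of all, and in 8% of growing lower and 1.72% of growing higher promoters. The HIF core, searched as ACGTG or GCGTG, is so short that 64.4% of all promoters held it. It was in 73.0% of 37 equal higher promoters, 53.8% of growing higher and 71.1% of growing lower ones. Growing lower and growing higher promoters had a median GC content of 64.0% and 66.3%, against 65.7% over all. A match is a string of letters and not a shown binding site.

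Among 46 HIF targets outside glycolysis, all 46 were higher at 1% oxygen on day 1, as were 45.5% of all genes. The list was chosen with earlier results of these data known. Responses of 36 of the 46 were larger on day 10 than on day 1 (43.9% of all genes had a contrast above 0). Of these targets 14 were growing higher (5.54% of all genes), 9 were equal higher (0.397%) and none was lower by the size rule. Their median difference was 0.85 on day 1 and 1.35 on day 10, and the median contrast was 0.54. NDRG1, a stress-responsive gene used as a hypoxia marker, read 65.2 and 555 CPM on day 1 and 84.5 and 3878 CPM on day 10, a contrast of 2.43 (2.28 to 2.58). ANGPTL4, an inhibitor of lipoprotein lipase, read 4.00 and 17.9 CPM on day 1 and 5.66 and 130 CPM on day 10, a contrast of 2.38 (1.72 to 2.98).

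VEGFA, the main factor of blood vessel growth, read 91.5 and 165 CPM on day 1 and 79.9 and 444 CPM on day 10. LOX, which cross-links collagen, read 36.6, 125, 39.5 and 590 CPM. For these 4 genes both 1% libraries lay above both 20% libraries, with the longer exposure higher. ADM, the vasodilator adrenomedullin, differed from them: it read 83.5 and 88.7 CPM on day 1 and 33.7 and 160 CPM on day 10, so its contrast of 2.13 (1.96 to 2.37) lay partly in the lower 20% library of day 10. DDIT4, an mTORC1 inhibitor, had differences of 1.56 and 2.24 and fell between the classes.

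A few HIF targets had a smaller difference on day 10. The mitophagy receptor BNIP3 read 103 and 308 CPM on day 1 and 103 and 173 CPM on day 10, a contrast of -0.83 (-0.98 to -0.68). Its relative BNIP3L, above, read 88.2, 203, 98.7 and 308 CPM. PDK1, pyruvate dehydrogenase kinase 1, read 26.5 and 54.8 CPM on day 1 and 36.2 and 46.3 CPM on day 10, a contrast of -0.68. AK4, a mitochondrial adenylate kinase, went from a difference of 1.03 to one of 0.18, and EGLN1, the main HIF prolyl hydroxylase, from 0.83 to 0.29. Of the 60 genes at least 2-fold higher on day 1, 45 were also at least 2-fold higher on day 10, 37 had a contrast above 0 and 19 were growing.

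The 29 genes of glycolysis and lactate export were divided. The contrast was above 0 for 9 of them, 13 with library totals and 11 with the median of all genes at 0, against 43.9%, 52.9% and 50% of all genes. The median was -0.16. PGAM1, phosphoglycerate mutase, reversed: it read 610 and 897 CPM on day 1 and 563 and 356 CPM on day 10, differences of 0.55 and -0.66 and a contrast of -1.22 (-1.29 to -1.14). 21.7% of its sampled sequence is shared with PGAM4. GPI, the next enzyme after hexokinase, read 495 and 630 CPM on day 1 and 459 and 333 CPM on day 10, a contrast of -0.81, and GAPDH had differences of 0.20 and -0.39.

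PGK1 and LDHA stayed higher on both days, with 1.02 and 0.60 and with 0.95 and 0.59. HK2, hexokinase 2, had nearly like differences of 0.84 and 0.98. The glucose transporter SLC2A3 had the largest contrast of the list, 3.10. The enolase ENO2 had 0.67, and SLC2A1, the common glucose transporter, had 0.56 with 234, 344, 233 and 506 CPM. The lactate carriers differed: SLC16A3 read 152, 244, 163 and 239 CPM with a contrast of -0.13 (-0.26 to -0.01), while SLC16A1, at 6.90 CPM or less, had 1.09 with an interval that includes 0 (-0.08 to 2.80). Of the 29, 2 were at or above 1 (6.76% of all genes) and 1 at or below -1 (5.44%). SLC16A1, 1 of these 2, reached 5 CPM in 1% oxygen at day 10 alone.

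**Figure D3:**
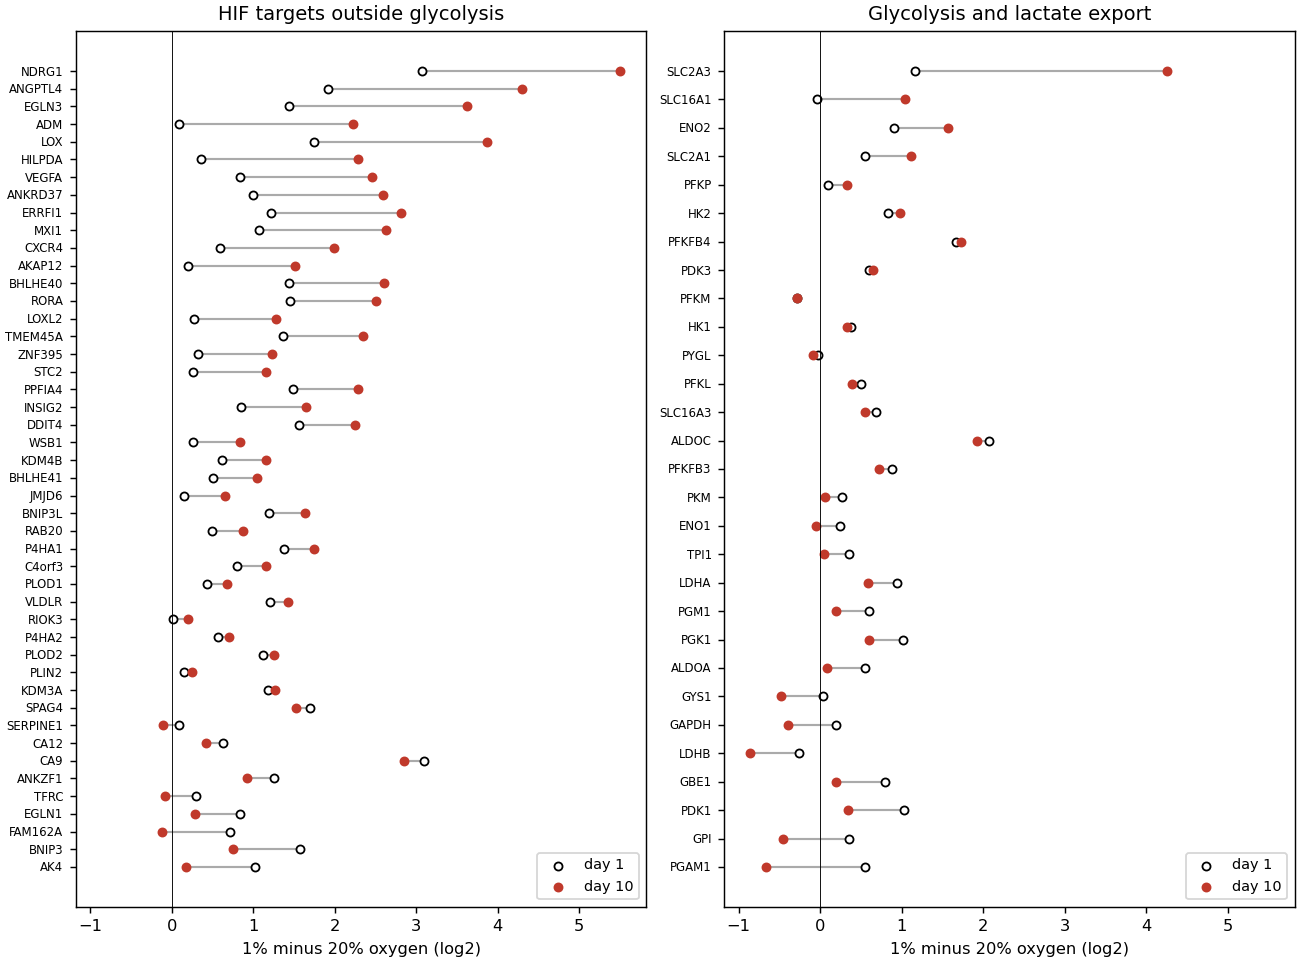
Log2 difference between 1% and 20% oxygen on day 1 (open circles) and day 10 (filled circles) for 46 HIF targets outside glycolysis (left) and 29 genes of glycolysis and lactate export (right), ordered by the contrast; grey lines join the days of 1 gene. NDRG1 moves from 3.07 to 5.50 and PGAM1 from 0.55 to -0.66.

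Of 12 measured genes of the oxygen-sensing system, 3 were growing higher (5.54% of all genes) and 1 growing lower (4.47%). HIF1A mRNA read 401 and 190 CPM on day 1 and 477 and 78.6 CPM on day 10, differences of -1.07 and -2.59 and a contrast of -1.51 (-1.66 to -1.39). EPAS1 read 54.3 and 50.8 CPM on day 1 and 134 and 294 CPM on day 10, a contrast of 1.22 (1.03 to 1.42), with the 20% libraries also apart. EGLN3 read 4.69 and 14.4 CPM on day 1 and 4.58 and 67.8 CPM on day 10, a contrast of 2.18. CITED2, which competes with HIF for its coactivator, had differences of 0.16 and 2.11.

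Inflammatory genes under NF-kB control diverged. Of 30 measured, 8 were at or below -1 (5.44% of all genes) and 3 at or above 1 (6.76%), with a median of -0.23. With library totals, with DESeq2 size factors and with the median of all genes at 0, 5 were at or above 1. The neutrophil chemokine CXCL1 read 76.0 and 82.8 CPM on day 1 and 148 and 25.0 CPM on day 10, a contrast of -2.64 (-2.93 to -2.45). The 20% library of day 10 was the highest and the 1% library of day 10 the lowest. Its neighbours on chromosome 4 among the measured genes of certain assignment had the same order of the day 10 pair. They were picked out after their values were seen, and other genes can lie between them. CXCL2 had a contrast of -1.74, CXCL3 of -1.67 and CXCL8 (interleukin 8), with 436, 478, 806 and 399 CPM, of -1.15. CSF3, the granulocyte growth factor and 1 of the 8, had -2.35, with 3.90, 3.70, 8.91 and 0.86 CPM, the last from 9 counts. It reached 5 CPM in 20% oxygen at day 10 alone and so had to differ to be counted.

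PTGS2, the prostaglandin-making enzyme COX-2, went the other way with 14.5 and 38.0 CPM on day 1 and 24.2 and 279 CPM on day 10, a contrast of 2.14 (1.80 to 2.47). IL24 had 2.04 and TNFSF15 3.43. IL6 read 31.8, 42.6, 75.0 and 200 CPM, with a contrast of 0.99. The differences of IL1A were 0.48 and 1.16, and those of CCL20 1.01 and 1.60.

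The promoters of CXCL1, CXCL2 and CXCL3 are shown because these neighbours moved together and hold the same match to an NF-kB site, searched as GGGA and TTCC with 2 bases between. Capitals mark 2 overlapping matches, which begin 79 and 78 bases before the start in CXCL1 and CXCL3 and 78 and 77 in CXCL2 (GRCh38.p14, CXCL1 chr4:73869243-73869392 on the plus strand, CXCL2 chr4:74099196-74099345 and CXCL3 chr4:74038690-74038839 on the minus strand):
CXCL1: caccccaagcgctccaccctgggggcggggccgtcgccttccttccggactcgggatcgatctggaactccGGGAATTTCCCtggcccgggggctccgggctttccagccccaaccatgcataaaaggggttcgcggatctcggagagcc
CXCL2: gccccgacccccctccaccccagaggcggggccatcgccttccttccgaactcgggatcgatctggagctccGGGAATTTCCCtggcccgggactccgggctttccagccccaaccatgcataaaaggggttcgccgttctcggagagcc
CXCL3: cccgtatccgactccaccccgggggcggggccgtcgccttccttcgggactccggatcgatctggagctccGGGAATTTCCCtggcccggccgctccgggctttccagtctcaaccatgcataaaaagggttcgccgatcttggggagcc
The site was in 36.0% of 25 promoters of the inflammatory list and in 1.57% of all promoters of the contrast. Between 3.3% and 8.3% of the sampled transcript sequence of these 3 genes is shared with another of them.

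Reversing responses came from low levels, with a median of 5.91 CPM (to higher) and 7.91 CPM (to lower) in 20% oxygen on day 1. FMOD, a collagen-binding proteoglycan, read 4.39 and 2.03 CPM on day 1 and 10.0 and 28.1 CPM on day 10, a contrast of 2.23 (1.76 to 3.47). PLA2G4A, which frees arachidonic acid for prostaglandins, read 7.03 and 3.88 CPM on day 1 and 6.58 and 18.3 CPM on day 10, a contrast of 2.07 (1.63 to 3.04). SEMA3B, a secreted semaphorin, had differences of -0.75 and 0.96, VIPR1, a neuropeptide receptor, -0.87 and 0.71, PLAC1 -0.66 and 0.96, and TBX1, a T-box factor, -0.64 and 0.79. VIPR1 reached 5 CPM in 20% oxygen at day 1 alone and PLAC1 in 1% oxygen at day 10 alone. Both thus had to differ to be counted. The interval of the day 1 difference of PLAC1 includes 0 (-2.40 to 0.001). Between days, VIPR1 differed by -1.12 at 20% oxygen and by 0.46 at 1% oxygen. Of the 32 genes of this direction 6 were rows of uncertain assignment, and 9 reached 5 CPM in 1% oxygen at day 10 alone.

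In the other direction PGAM1 was the single well-expressed gene among those named. PKI55 read 17.1 and 27.4 CPM on day 1 and 43.0 and 14.1 CPM on day 10, and DTWD2 7.81, 14.7, 10.2 and 3.64 CPM. The contrasts were -2.19 (-2.68 to -1.90) and -2.11 (-3.10 to -1.72). ZNF92 had differences of 0.61 and -0.98, DOK3, an adaptor of immune receptors, 0.83 and -0.60, and C15orf48 0.60 and -0.57. For C15orf48 both day 10 libraries, at 68.0 and 45.3 CPM, lay above both day 1 libraries, at 14.5 and 22.6 CPM. Of the 18 genes, 5 were rows of uncertain assignment.

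Fading responses were few, and no gene met the rule for naming one. They need a day 1 difference of at least 1 in size, which only 70 genes had. Of the 60 higher ones 2 faded, and of the 10 lower ones 3 did. A day 10 difference of that size, which growing needs, was found for 1836 genes. The 5 fading rows are given because they are few. HNRNPH2 read 9.27, 41.5, 24.3 and 20.99 CPM, but a row for its joined transcript with RPL36A can trade reads with it. LOC727751 read 3.22, 20.3, 4.50 and 7.86 CPM. The 3 rows to lower were COMMD3-BMI1 and POC1B-GALNT4, which are joined transcripts with 98.3% and 95% of their sampled sequence in another gene, and H3F3A, counted in the 20% library of day 1 and listed at 0 in the others.

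Immediate early genes, which respond within minutes to growth signals and stress, had a median contrast of 0.62 over 26 measured, with 6 at or above 1 (6.76% of all genes) and 1 at or below -1 (5.44%). DUSP1, a MAP kinase phosphatase, read 129 and 129 CPM on day 1 and 137 and 538 CPM on day 10, a contrast of 1.96. NR4A1, an orphan nuclear receptor, had 1.56, and DUSP5 had 1.36. NR4A1 reached 5 CPM in 1% oxygen at day 10 alone and so had to differ to be counted. FOSL1, an AP-1 subunit, went the other way with 255, 212, 215 and 67.0 CPM and -1.40.

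Matrix and invasion genes had a median contrast of 0.40 over 44 measured, 9 at or above 1 (6.76% of all genes) and 2 at or below -1 (5.44%, close to the share in the list). FN1, fibronectin, read 248.8, 367, 218 and 829 CPM. LAMA5, a laminin chain, had a contrast of 1.51, ITGB3, an integrin subunit, 1.59, and MMP1, interstitial collagenase, 1.22. THBS1, thrombospondin 1, read 789 and 864 CPM on day 1 and 945 and 340 CPM on day 10, a contrast of -1.60 (-1.68 to -1.54), and the urokinase gene PLAU had -1.33. COL7A1 was in the equal class, with a contrast of 0.21.

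NRF2 targets, which protect against oxidants, had a median contrast of -0.50 over 22 measured. NQO1, a quinone reductase, read 201 and 139 CPM on day 1 and 144 and 23.4 CPM on day 10, a contrast of -2.04 (-2.31 to -1.87), and GCLM, for glutathione synthesis, had -1.40. AKR1C3 and AKR1C1 had 1.67 and 1.01, the 2 of the list at or above 1 (6.76% of all genes); AKR1C1 shares 35% of its sampled sequence with AKR1C2. In the integrated stress response list, 4 of 25 were at or above 1 (6.76% of all genes) and 1 at or below -1 (5.44%). With library totals 7 of the 25 and 9.12% of all genes were at or above 1. GDF15, a stress cytokine, had 1.85 and ASNS, asparagine synthetase, 1.23, while the factor ATF5 had -1.93.

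The median contrast of 65 nuclear-encoded subunits of the respiratory chain was -0.17. 14 of them were above 0 (28 with library totals, when 52.9% of all genes were) and 2 at or below -1 (5.44% of all genes): CYCS, cytochrome c, with 491, 444, 457 and 189 CPM and a contrast of -1.12, and NDUFS6, of complex I, with -1.04. With library totals 0 of the 65 were at or below -1. Of 70 cytosolic ribosomal proteins none was past 1 in either direction; their median was 0.06, and the largest, RPL13A, had 0.77. Near-identical pseudogenes can share reads with these genes.

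**Figure D4:**
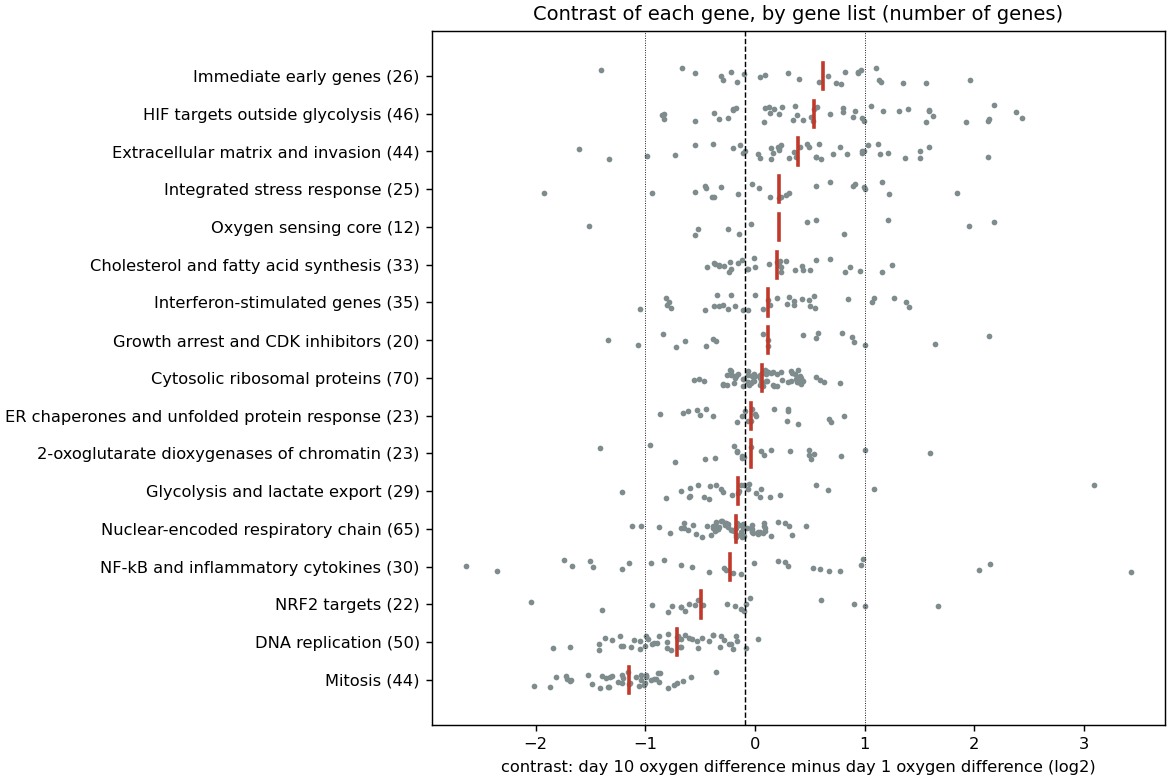
Contrast (log2, day 10 oxygen difference minus day 1 oxygen difference) of each measured gene in 17 lists; each point is 1 gene, red bars are list medians, the dashed line is the median of all 11580 genes (-0.09) and dotted lines mark 1 and -1. All 44 mitosis genes lie left of 0, and the inflammatory list reaches past both dotted lines.

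The other lists are set beside all genes, of which 6.76% passed the border upward and 5.44% downward. Shares were above these in the growth arrest list, both ways, and upward in the interferon list, though on few genes. Of 20 genes of growth arrest 3 were at or above 1 and 2 at or below -1, among them CDKN1C, the CDK inhibitor p57, with 3.71, 3.05, 2.08 and 10.6 CPM and a contrast of 2.13, and CCND2, with 1.64. RBL1 and GADD45A had -1.34 and -1.07. Of 35 interferon-stimulated genes 5 were at or above 1, led by IRF7 (1.41) and OAS1 (1.38), and IFI44 had -1.05. CDKN1C, IRF7, OAS1 and MX2 (1.07) reached 5 CPM in 1% oxygen at day 10 alone and so had to differ to be counted. Of 33 genes of cholesterol and fatty acid synthesis 2 were at or above 1, ACSS2 with 1.25 and MSMO1 with 1.16. Of 23 dioxygenases that act on chromatin KDM7A had 1.59 and C14orf169 -1.42. Of 23 endoplasmic reticulum genes none reached 1, HERPUD1 having 0.81 and CRELD2 -0.86.

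The reoxygenated library was not used by the contrast, but it is set against the 20% library of day 10, which was. Of the 641 growing higher genes, 31 (4.84%) were at least 2-fold higher in reoxygenated cells than in 20% oxygen at day 10, and 0.63% of all genes were. Of the 518 growing lower genes, 7 (1.35%) were at least 2-fold lower, and 0.354% of all genes were. PTGS2, GDF15 and CYP1A1 read 89.6, 36.1 and 31.9 CPM in reoxygenated cells, against 24.2, 9.50 and 8.66 CPM in 20% oxygen at day 10. NDRG1, LOX and EGLN3 read 61.8, 32.1 and 4.66 CPM, against 84.5, 39.5 and 4.58 CPM.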

How the data were processed

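RNA of MDA-MB-231 cells from 5 conditions was sequenced with an mRNA kit, 1 library each. The submitters' processing notes name hg38, edgeR, RSEM 1.2.15 and Bowtie2 2.1.0. The strand setting and gene annotation behind the counts are not stated there or in the labels. The authors deposited expected counts per gene, estimated and not normalized, and a table of signal values on a CPM scale with TMM factors, as its values show. Every signal value was a whole multiple (tolerance 0.01) of the value of 1 read and matched the rounded count: whole reads could thus be recovered for all values. Implied TMM factors were 0.952, 0.966, 0.957, 1.066 and 1.056, in the order 20% and 1% on day 1, 20% and 1% on day 10, reoxygenated.

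Differences were taken of log2(value + 1), a scale that understates the change of low genes; exact count intervals can then lie beyond the printed value. Pair ratios have Clopper-Pearson intervals and contrasts conditional exact intervals of the odds ratio, at 95%, after rounding expected counts. No test was run on the contrast. Scripts (Python 3.11.15, R 4.3.3) were tested on simulated data.

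Genes were matched to RefSeq tables of GRCh38.p14, and promoters are from RefSeq in that build. Of 11579 distinct symbols, 11464 matched. Rows were called uncertain (560 symbols) if joined, part of a joined row, turned into dates, or with at least 50% of 60 sampled 50-base words in another row's transcripts.

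Named genes of the classes had a plain symbol, a row that was not uncertain and a counting interval that left out 0 (of both differences for equal genes). They were the 10 with the largest contrast in each growing class, up to 6 in each fading and reversing class, and the 10 and 6 leading equal genes. Without these conditions, up to 4 largest and 2 nearest 0 were taken from each list, with a panel. A gene that the rule names is not reported here. The genes, lists and rules were chosen with earlier results of these data known. Alternatives were other pseudocounts, minimum levels, scalings (edgeR 4.0.16, DESeq2 1.42.0), borders and row sets.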

Additional observations from a re-analysis of the deposited data

Results flagged for a closer look

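For 12 named genes, the difference between 1% and 20% oxygen had 1 sign on day 1 and the other sign on day 10, each at least 0.5 in size on the log2 scale. With 1 library per condition the difference between days was not tested. The contrasts to higher were 2.23 for FMOD, 2.07 for PLA2G4A, 1.70 for SEMA3B, 1.63 for PLAC1, 1.58 for VIPR1 and 1.43 for TBX1. Those to lower were -2.19 for PKI55, -2.11 for DTWD2, -1.58 for ZNF92, -1.43 for DOK3, -1.22 for PGAM1 and -1.17 for C15orf48. PGAM1 was the one read at over 100 CPM in every library. VIPR1 and PLAC1 each reached 5 CPM in 1 library alone, and the interval of the day 1 difference of PLAC1 includes 0.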

How the results depend on the processing

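No paired analysis was possible because each condition had 1 library and the contrast leaves no residual degrees of freedom. For the same reason no library could be left out. With a pseudocount of 0.5 there were 4 fading higher and 52 reversing to higher genes, and with 3 there were 24 equal higher, 5 equal lower, 11 reversing to higher and 10 reversing to lower. A minimum of 1 CPM gave 1213 genes with a contrast of 1 or more, 7 fading higher, 6 fading lower, 70 reversing to higher and 37 reversing to lower, and one of 10 CPM gave 8 equal lower and 18 reversing to higher. Library totals gave 386 genes at or below -1, 304 growing lower and 8 equal lower. DESeq2 size factors and median centring each gave 8 equal lower. edgeR's log2 CPM with a prior count of 2 gave 6 fading higher and 63 reversing to higher. Asking also for a counting interval without 0 left 1 fading lower, and leaving out uncertain rows left 1 fading higher and 1 fading lower. Borders of 1.5 and 0.75 gave 294 higher and 98 lower contrasts, 238 growing higher, 71 growing lower, 22 equal higher, 1 equal lower, 3 reversing to higher and 5 reversing to lower.

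The cause of these shifts was not tested, beyond the numbers of genes each minimum admits. Of 1494 values of the 137 named genes under the alternatives, 27 moved by more than the distance from the middle of the counting interval to its end. None was counted as reversed, which was possible only for a contrast of at least 1 in size. Other minimum levels, borders, row sets and the interval rule leave the contrast of a gene unchanged. Many of these values thus could not move, and their count does not measure stability. List medians changed sign only for the endoplasmic reticulum list (3 alternatives) and the chromatin dioxygenases (4).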
